A study of Mus musculus with 8 samples.

Results

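Hes6 and 9 other genes of the Notch pathway were examined in the kidney cortex of young and aged mice. The 10 members were the rows of the count tables with the symbols Notch1, Notch2, Notch3 and Notch4 (receptors), Jag1 and Dll4 (ligands), and Hes1, Hes6, Hey1 and Heyl (members of the Hes and Hey family of repressors). They were found among 22609 genes in every library, and all 10 passed the filter on low counts that 13944 genes passed. Hes6 was picked out by its own difference between aged and young libraries in these data, so its values are given as a description, with no test. The other 9 members were listed by pathway role, at a time when earlier results of these libraries were known.

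Notch receptors span the cell membrane and are activated by Jagged or Delta-like ligands on a neighboring cell. An ADAM protease and then the gamma-secretase complex cut the bound receptor, and the freed intracellular part enters the nucleus, where it joins the DNA-binding protein Rbpj and a Mastermind coactivator and turns on Hes and Hey genes. In the developing kidney Notch signaling is needed for the proximal parts of the nephron, and in the mature collecting duct it favors principal over intercalated cells. Notch3 is known for its place in vascular smooth muscle and pericytes, and Notch4 and Dll4 for theirs in endothelium. Hes6 differs from its relatives in that it is known to oppose Hes1 and to favor differentiation.

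The libraries came from the renal cortex of untreated male C57BL6 mice, 4 aged (30 months by the sample labels) and 4 young (5 months), with a library for each mouse; the study's methods give a slightly higher mean age for the aged group. No genotype, transgene or treatment set the groups apart, and the whole cortex was sequenced, so that fewer cells of a type and less RNA per cell cannot be told apart in any value below. The reads assigned to genes numbered 14820804 in the shallowest and 19821429 in the deepest library. Levels are given in CPM, the reads of a gene scaled to a common library size with TMM factors. To be called changed, a gene needed an adjusted p under 0.05 together with a fold over 1.5 in either direction. By edgeR's quasi-likelihood test 287 of the 13944 genes changed, which is 2.06% of them; 56.8% of the 287 were higher in aged mice, as against 75.4% of 488 when libraries were scaled by size only. Aged mouse 1 stood apart on the first principal component, at -71.5 where the other aged mice lay between -16.3 and 2.26, and its summed level of 10 proximal tubule markers was 13550 CPM where the other 7 mice had between 23845 and 29413 CPM. Values without this mouse are given for the members where it moved them. Markers of the cortex were present throughout, with Slc34a1 at no less than 2481 CPM and Lrp2 at no less than 3862 CPM in any mouse, and Aqp2, a marker of collecting duct principal cells, at no less than 79.9 CPM.

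Promoter sequence is shown for Hes6 at both of its annotated starts and for Notch3. The windows run from 250 bases before to 50 bases after the start, on the gene's own strand, as RefSeq gives them on GRCm38.p6, and 7 of the 10 members had such a window (8 windows in all). No window was at hand for Hes1, Hey1 and Heyl. Capitals mark the N box (CACNAG on either strand), a site type to which Hes repressors are known to bind.
Hes6, chr1:91413173-91413472, minus strand: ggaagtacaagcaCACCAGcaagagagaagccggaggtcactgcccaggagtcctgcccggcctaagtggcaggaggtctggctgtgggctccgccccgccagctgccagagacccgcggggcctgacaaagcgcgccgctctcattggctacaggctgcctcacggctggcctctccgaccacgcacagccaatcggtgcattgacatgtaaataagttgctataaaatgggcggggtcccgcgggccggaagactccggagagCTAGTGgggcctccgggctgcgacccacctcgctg
Hes6, chr1:91413989-91414288, minus strand: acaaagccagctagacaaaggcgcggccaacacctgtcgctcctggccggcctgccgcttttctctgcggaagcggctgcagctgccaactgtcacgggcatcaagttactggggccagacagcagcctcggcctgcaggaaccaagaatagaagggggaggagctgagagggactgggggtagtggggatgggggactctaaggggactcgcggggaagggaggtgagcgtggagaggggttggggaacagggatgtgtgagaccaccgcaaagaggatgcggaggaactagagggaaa
Notch3, chr17:32166841-32167140, minus strand: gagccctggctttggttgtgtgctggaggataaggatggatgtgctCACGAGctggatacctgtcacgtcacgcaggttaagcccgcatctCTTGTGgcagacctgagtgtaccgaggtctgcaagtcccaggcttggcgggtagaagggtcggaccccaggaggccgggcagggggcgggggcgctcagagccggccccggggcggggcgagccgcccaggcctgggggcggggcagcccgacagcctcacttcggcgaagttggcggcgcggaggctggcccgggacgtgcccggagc
The first Hes6 window held 2 N boxes, starting at bases -237 and +16 from the transcript start, the second Hes6 window held 0, and the Notch3 window held 2, at -204 and -159. An N box was found in 5 of the 8 member windows and in 42.5% of the 32851 promoter windows of the table. The core of the Rbpj site, TGGGAA on either strand, was found in 0 of the 8 and in 25.6% of all windows. The E box CANNTG, which cannot coincide in full with an N box, was found in 4 of the 8 and in 72.3% of all windows. These counts leave out the target genes Hes1, Hey1 and Heyl, which had no window. These letters describe the windows and say nothing of binding.

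Hes6 was the most abundant member per transcript length, and it was lower in every aged mouse than in any young mouse. The gene is found at chr1:93308060-93310615 in mm9, minus strand, with 4 exons and 1335 nt in the longest transcript that codes for protein. Aged mice 1 to 4 gave 566, 421, 615 and 542 Hes6 counts, and young mice 1 to 4 gave 716, 978, 750 and 821. Scaled, these came to 27.8, 27.4, 32.9 and 29.5 CPM for the aged and 44.1, 51.7, 51.0 and 48.5 CPM for the young animals. The highest aged mouse thus lay clearly under the lowest young mouse. Mean levels were 29.4 ± 2.5 CPM (SD, 4 mice) for aged and 48.8 ± 3.43 CPM (SD, 4 mice) for young mice, so that the aged mean was 0.602 times the young mean. The log2 fold change was -0.73 (SE 0.088), and it was -0.71 (SE 0.090) without aged mouse 1. Both groups were tight, with a coefficient of variation of 8.49% in aged and 7.02% in young mice.

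Which cortical cells gave these Hes6 reads is not known from whole tissue, so the marker lists of several tubule segments were set beside it. The 7 principal cell markers summed to between 344 and 476 CPM in aged and between 356 and 421 CPM in young mice, and the 8 intercalated cell markers to between 282 and 416 CPM and between 341 and 439 CPM. Both ranges overlapped between the ages. The thick ascending limb list, 6 genes, ran from 2238 to 3749 CPM in aged and from 3102 to 5296 CPM in young mice, and the proximal tubule list from 13550 to 28760 CPM and from 25682 to 29413 CPM. None of the 31 genes in these 4 lists passed both thresholds by edgeR (2.06% of all genes did) or limma-voom (1.96%), DESeq2 called 2, Slc22a6 and Slc5a12 (6.26% of all genes), and 6 had an unadjusted p below 0.05 (25.5% of all genes). Their median log2 fold changes were -0.26 (principal), -0.21 (intercalated), -0.24 (thick limb) and -0.31 (proximal tubule), where the median of all genes tested was 0.029. Without aged mouse 1 the medians were -0.12, -0.13, -0.25 and -0.086. No marker in these lists was at 0 in any mouse; the lowest was Hmx2 at 2.36 CPM. Relative to the mean log2 level of the principal cell list, Hes6 stood at -0.34 ± 0.092 (SD, 4 mice) in aged and 0.26 ± 0.21 (SD, 4 mice) in young mice, without overlap, and relative to the intercalated list at -0.18 ± 0.21 (SD, 4 mice) and 0.30 ± 0.11 (SD, 4 mice), also without overlap. Relative to the thick limb list the groups overlapped, at -2.27 ± 0.33 (SD, 4 mice) and -1.81 ± 0.41 (SD, 4 mice). Relative to the proximal tubule list Hes6 was at -4.24 in aged mouse 1, at -5.54 to -5.07 in the other aged mice and at -4.79 to -4.65 in the young mice, so that the groups overlapped through aged mouse 1 and were apart without it. These relative levels hold the Hes6 value by which that gene was chosen, so their separation between the ages is a description and no test. The part of cell composition in the Hes6 difference was not tested.

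**Figure D1:**
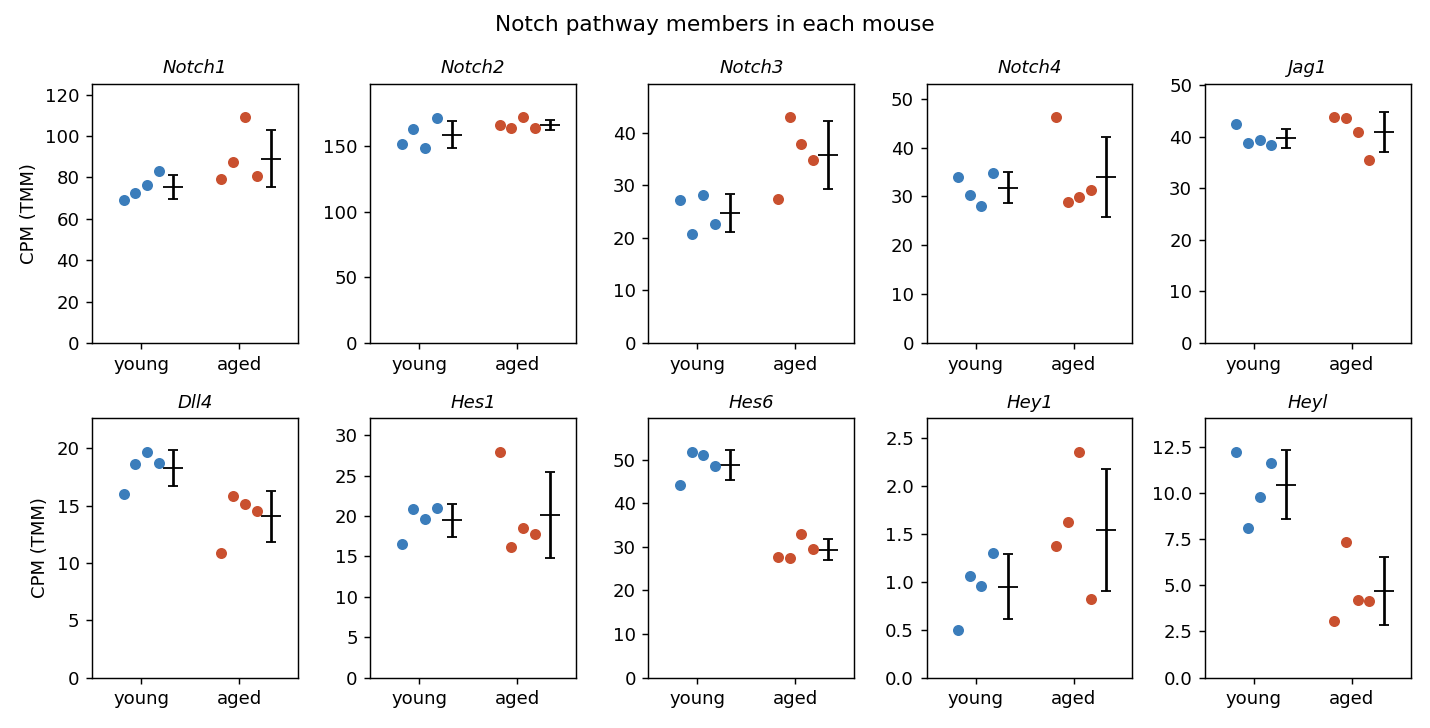
CPM after TMM scaling (vertical axes, starting at 0) of the 10 members in each of 4 young (blue) and 4 aged (red) mice; dots are mice and black bars are the mean and SD. Hes6, Heyl and Dll4 show no overlap between the ages, and aged mouse 1, the leftmost red dot, is the high mouse for Hes1 and Notch4 and the low mouse for Notch3, Dll4 and Heyl.

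Hes1, the classical Notch target that Hes6 is known to oppose, did not pass the test between the ages. Its levels were 27.9, 16.2, 18.5 and 17.8 CPM in aged mice 1 to 4 and 16.6, 20.8, 19.6 and 21.0 CPM in young mice 1 to 4. Only aged mouse 1 lay above the young range. The log2 fold change was 0.046 (SE 0.17, adjusted p = 0.886, edgeR with Benjamini-Hochberg adjustment), and without aged mouse 1 it turned to -0.15 (SE 0.11, adjusted p = 0.394, edgeR). The ratio of Hes6 to Hes1, taken within each mouse on FPKM (CPM per kilobase of the longest coding transcript), was 1.10, 1.86, 1.95 and 1.83 for aged mice 1 to 4, against 2.93, 2.73, 2.86 and 2.54 for young mice 1 to 4. It was 1.68 ± 0.395 (SD, 4 mice) in aged and 2.77 ± 0.170 (SD, 4 mice) in young mice, and since it holds the Hes6 value by which that gene was chosen, it was not tested.

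Heyl, a target that vascular mural cells express, had the largest fold change among the members, and it narrowly missed the threshold. Its levels were 3.09, 7.35, 4.22 and 4.14 CPM in aged mice 1 to 4 and 12.2, 8.09, 9.79 and 11.6 CPM in young mice 1 to 4. All aged mice lay below all young mice, although aged mouse 2 and young mouse 2 came close to each other. The mean was 4.70 ± 1.84 CPM (SD, 4 mice) for aged and 10.4 ± 1.87 CPM (SD, 4 mice) for young mice. Heyl had a log2 fold change of -1.16 (SE 0.26, adjusted p = 0.0529, edgeR with Benjamini-Hochberg adjustment). The call turned on the fit: the adjusted p was 0.00118 with DESeq2, 0.0417 with limma-voom, 0.0471 without aged mouse 1 (log2 fold change -1.0), 0.0321 without aged mouse 2 (-1.45) and up to 0.147 without young mouse 1. Hey1, its relative, was the scarcest member, at 0.817 to 2.35 CPM in aged and 0.493 to 1.30 CPM in young mice, on 176 read pairs over the 8 libraries. The Hey1 groups overlapped, and a log2 fold change of 0.69 (SE 0.38, adjusted p = 0.283, edgeR) was not detectable as a difference at this depth.

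Among the receptors Notch3, known from mural cells, had the largest fold change. Its levels were 27.4, 42.9, 37.8 and 34.9 CPM in aged mice 1 to 4 and 27.2, 20.8, 28.1 and 22.6 CPM in young mice 1 to 4. Aged mice 2, 3 and 4 lay above every young mouse, and aged mouse 1 lay within the young range. The mean was 35.7 ± 6.47 CPM (SD, 4 mice) for aged and 24.7 ± 3.55 CPM (SD, 4 mice) for young mice, a ratio of 1.45. The log2 fold change of 0.53 (SE 0.15) had an adjusted p of 0.0833 (edgeR) and passed neither threshold. Without aged mouse 1 it was 0.64 (SE 0.12, adjusted p = 0.0285, edgeR), which passed both, as did the fit scaled by library size only (0.64, adjusted p = 0.0472); across the alternatives its adjusted p lay between 0.0251 and 0.207.

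Notch3 and its vascular target Heyl thus had fold changes of opposite sign, and the 7 mural cell markers were set beside them. Summed, these markers were at 187 to 304 CPM in aged and at 244 to 284 CPM in young mice, and 0 of the 7 passed both thresholds by edgeR, DESeq2 or limma-voom, where 2.06%, 6.26% and 1.96% of all genes did. An unadjusted p below 0.05 was found for 3 of the 7 and for 25.5% of all genes. Their median log2 fold change was 0.30, and it was -0.028 without aged mouse 1. This median was the value of Cnn1, a scarce gene with means of 0.912 CPM in aged and 0.743 CPM in young mice. It was -0.0086 with limma-voom and 0.13 with at least 10 counts in every library. The members of the list did not move one way: Cspg4, a pericyte proteoglycan, had a log2 fold change of 0.31, Rgs5 of 0.69 and Myh11 of 0.62, while Tagln had -0.58 and Pdgfrb -0.17. No mural marker was at 0, and the lowest was Cnn1 at 0.374 CPM. Relative to the mean log2 level of the mural list, Heyl was at -2.31 ± 0.64 (SD, 4 mice) in aged and -1.04 ± 0.34 (SD, 4 mice) in young mice, without overlap. Notch3 taken the same way was at 0.64 ± 0.55 (SD, 4 mice) and 0.20 ± 0.27 (SD, 4 mice). Here aged mouse 1, at -0.13, lay within the young range of -0.13 to 0.51, and the other aged mice, at 0.67 to 1.15, lay above it. Within each mouse the FPKM of Notch3 was 3.29 to 5.05 times that of Heyl in the aged and 1.09 to 1.62 times in the young animals.

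The other receptors differed less. Notch1, which acts in many epithelia and in endothelium, was at 79.3, 87.2, 109 and 80.5 CPM in aged mice 1 to 4 and at 69.2, 72.7, 76.4 and 83.0 CPM in young mice 1 to 4. Its groups overlapped, with a log2 fold change of 0.24 (SE 0.11, adjusted p = 0.224, edgeR). Notch2, the receptor known to be needed for proximal nephron formation, had the smallest spread among the aged mice (coefficient of variation 2.36%) of any member, at 163 to 172 CPM in aged and 149 to 171 CPM in young mice (log2 fold change 0.068, SE 0.074, adjusted p = 0.577, edgeR). Notch4, an endothelial receptor, was at 46.2 CPM in aged mouse 1 and at 28.8, 29.8 and 31.3 CPM in the other aged mice, as against 34.0, 30.3, 28.1 and 34.8 CPM in young mice 1 to 4. The high value was that of a single aged mouse, and the log2 fold change of 0.099 (SE 0.16, adjusted p = 0.716, edgeR) turned to -0.084 (SE 0.092, adjusted p = 0.597, edgeR) without it.

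Per length, Notch2 made up 45.5% ± 1.19 (SD, 4 mice) of the summed FPKM of the 4 receptors in aged and 48.8% ± 1.77 (SD, 4 mice) in young mice, without overlap. Notch1 made up 26.9% and 25.7%, Notch4 14.9% and 15.6%, and Notch3 12.8% ± 2.31 (SD, 4 mice) and 9.96% ± 1.71 (SD, 4 mice). By these means the order was Notch2, Notch1, Notch4, Notch3 at both ages, although in aged mouse 2 and aged mouse 3 Notch3 stood above Notch4. The sum itself was between 33.1 and 37.1 FPKM in aged and between 29.9 and 33.1 FPKM in young mice, a pair of ranges that did not overlap but whose nearest mice, aged mouse 4 and young mouse 4, were almost level.

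Of the ligands, Dll4, the Delta-like ligand of endothelium, was lower in every aged mouse. It was at 10.9, 15.9, 15.1 and 14.5 CPM in aged mice 1 to 4 and at 16.0, 18.6, 19.7 and 18.7 CPM in young mice 1 to 4. The groups did not overlap, by a margin of a fraction of a CPM between aged mouse 2 and young mouse 1. The means were 14.1 ± 2.23 CPM (SD, 4 mice) and 18.3 ± 1.56 CPM (SD, 4 mice), and the log2 fold change of -0.38 (SE 0.13, adjusted p = 0.130, edgeR) passed neither threshold. Without aged mouse 1 it was -0.27 (SE 0.098, adjusted p = 0.128, edgeR). The 10 endothelial markers beside it summed to 777 to 1079 CPM in aged and 863 to 934 CPM in young mice, with a median log2 fold change of 0.066. By edgeR, DESeq2 or limma-voom 0 of the 10 changed, where 2.06%, 6.26% and 1.96% of all genes did. An unadjusted p below 0.05 was found for 1 of the 10 and for 25.5% of all genes. The lowest value among them was 36.9 CPM, in Egfl7. Against the mean log2 level of that list Dll4 was at -2.60 ± 0.38 (SD, 4 mice) in aged and -2.16 ± 0.15 (SD, 4 mice) in young mice, and here the groups overlapped. Jag1, the Jagged ligand, was even between the ages, at 43.7, 43.5, 40.9 and 35.4 CPM in aged mice 1 to 4 and 38.3 to 42.3 CPM in young mice (log2 fold change 0.044, SE 0.087, adjusted p = 0.773, edgeR; 0.0099 without aged mouse 1).

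Counted together, 0 of the 9 members other than Hes6 passed both thresholds by edgeR, where 2.06% of all genes did. At an unadjusted p below 0.05 there were 3 of the 9 (Heyl, Notch3 and Dll4), where 25.5% of all genes had one. By DESeq2 (6.26% of all genes) and by limma-voom (1.96%) 1 of the 9 passed, Heyl in both. It was 2 without aged mouse 1 (3.17% of all genes), Heyl and Notch3, and 1 without aged mouse 2 (0.845%), Heyl, as it was with library size only (3.50%), Notch3. Groups without overlap were seen in 2 of these 9 members (22.2%), Heyl and Dll4, both with the aged mice below; 18.9% of all genes had groups without overlap and 10% had the aged mice below. The median log2 fold change was 0.068 over the 9 members and 0.029 over all genes.

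**Figure D2:**
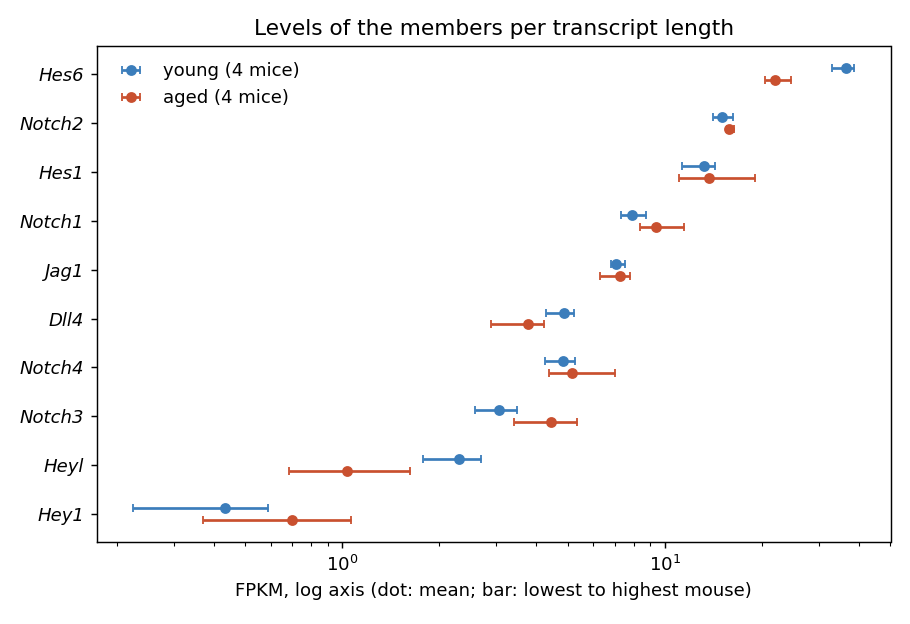
FPKM of the 10 members on a log axis, ordered by the young mean; dots are means of 4 mice and bars run from the lowest to the highest mouse. Hes6 leads at both ages, and the bars of Heyl and Hey1 overlap in aged but not in young mice.

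Levels could be ordered per transcript length. In young mice the order was Hes6 (36.6 ± 2.57 FPKM, SD, 4 mice), Notch2 (15.1), Hes1 (13.3), Notch1 (7.94), Jag1 (7.07), Dll4 (4.87), Notch4 (4.82), Notch3 (3.07), Heyl (2.30) and Hey1 (0.432). Neighbors whose ranges over the young mice overlapped were Notch2 and Hes1, Notch1 and Jag1, Dll4 and Notch4, and Notch3 and Heyl. Taken within each mouse, Notch2 stood above Hes1 and Notch3 above Heyl in all 4 young mice. The order of Notch1 and Jag1, and that of Dll4 and Notch4, differed between young mice. In aged mice Hes6 still led (22.0 ± 1.87 FPKM, SD, 4 mice), ahead of Notch2 (15.8), Hes1 (13.7), Notch1 (9.38), Jag1 (7.28), Notch4 (5.16), Notch3 (4.44), Dll4 (3.76), Heyl (1.04) and Hey1 (0.700). Dll4 stood at place 6 in the young and at place 8 in the aged order, behind Notch4 and Notch3. Among the aged mice the ranges overlapped for Notch2 and Hes1, Hes1 and Notch1, Jag1 and Notch4, Notch4 and Notch3, Notch3 and Dll4, and Heyl and Hey1. Within each of the 4 aged mice, Hes1 stood above Notch1, Jag1 above Notch4 and Notch3 above Dll4. The order differed between aged mice for Notch2 and Hes1, Notch4 and Notch3, and Heyl and Hey1. Between Hes6 and Notch2 the ranges were separate at both ages.

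The rest of the pathway was examined with a list of 72 further genes, of which 63 passed the filter on low counts. Of these 1 changed, which is 1.59% and close to the 2.06% of all genes, and 14 had groups without overlap, 22.2% as against 18.9% of all genes. An unadjusted p below 0.05 was found for 19 of the 63 and for 25.5% of all genes. With the adjusted p alone 2 passed, where 2.95% of all genes did. The median log2 fold change of the 63 was 0.062. The 9 genes that did not pass the filter were Dll3, Dlk1, Dlk2, Dner, Dtx1, Rbpjl, Hes3, Hes5 and Hes7, among which Hes3 and Hes5 had 0 counts in all 8 libraries, which with 3 counts as the limit in a library allows up to 0.204 CPM, counting error only.

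**Figure D3:**
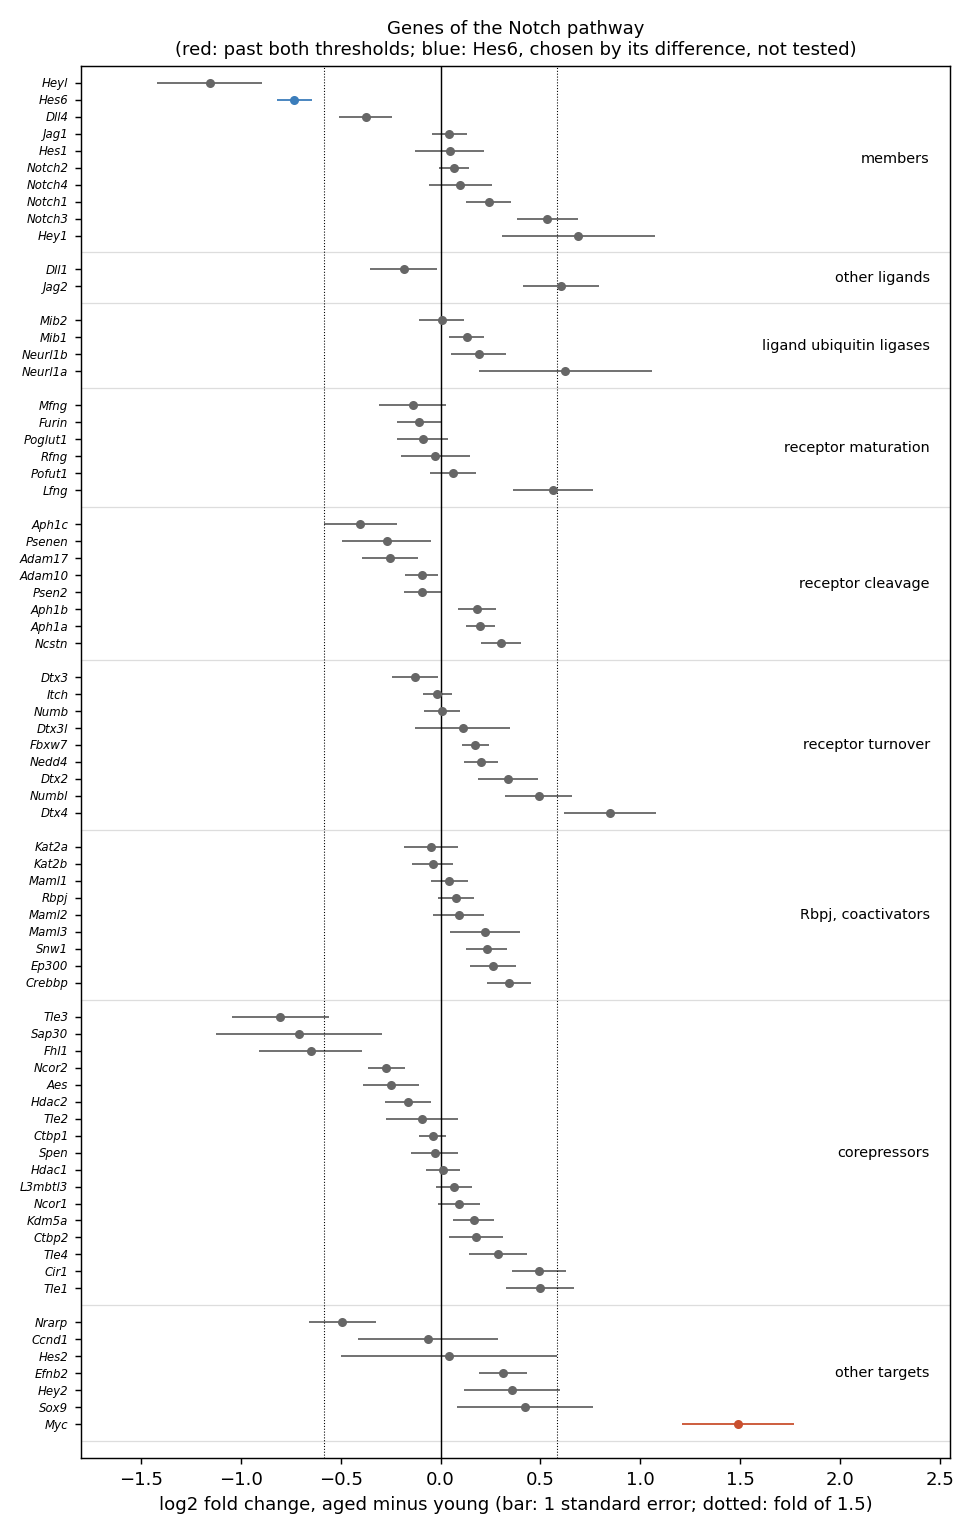
Log2 fold changes (aged minus young, horizontal axis) of the 10 members and of other pathway genes that passed the filter, grouped by role; dots are estimates, bars 1 standard error and dotted lines a fold of 1.5. Myc (red) passed both thresholds, Hes6 (blue) was chosen by its difference and not tested, and most others lie within the dotted lines.

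Myc, a growth-promoting transcription factor and a known Notch target in several tissues, was the gene of the list that rose. It was at 28.8, 12.3, 14.5 and 20.6 CPM in aged mice 1 to 4 and at 6.41, 4.97, 7.34 and 8.51 CPM in young mice 1 to 4. All aged mice lay above all young mice, and aged mouse 1 was highest. The log2 fold change was 1.49 (SE 0.28, adjusted p = 0.0385, edgeR), and it was 1.22 (SE 0.22, adjusted p = 0.0257, edgeR) without aged mouse 1. The call was lost without aged mouse 3 (adjusted p = 0.0552) and without any of the 4 young mice (0.0954 to 0.115), while the log2 fold change stayed between 1.22 and 1.65. Few genes of any kind were called in those fits: 115 without aged mouse 3 and 8 to 35 without a young mouse, against 287 with all mice. The other targets were mixed. Nrarp, a feedback inhibitor that Notch induces, was at 7.12, 7.42, 5.99 and 4.58 CPM in aged mice 1 to 4 and at 8.20, 8.78, 8.50 and 9.81 CPM in young mice 1 to 4, without overlap, but a log2 fold change of -0.49 (SE 0.17) had an adjusted p of 0.120 (edgeR); it is named here outside the rule, after its values were seen. Hey2, the vascular relative of Hey1, had 0.36 (SE 0.24) and Ccnd1, a cyclin, -0.063 (SE 0.35).

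Of the genes of receptor cleavage, Ncstn, a subunit of gamma-secretase, had a log2 fold change of 0.30 (SE 0.099, adjusted p = 0.108, edgeR) and Aph1a, another subunit, of 0.20 (SE 0.074, adjusted p = 0.140, edgeR), both with all aged mice above all young mice. Both are named after their values were seen. Groups apart with the aged mice above were seen for 2 of the 9 genes of this class and for 1234 of all 13944. Only 3 of the 9 had a positive log2 fold change, and the class median was -0.095. Aph1b and Aph1c are close paralogs whose reads the counting could have split, so their values, 0.18 and -0.40, are uncertain. The proteases Adam10 and Adam17, which make the first cut, had -0.095 and -0.25.

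In the remaining classes 0 genes passed both thresholds by edgeR (2.06% of all genes) or limma-voom (1.96%), and 3 did by DESeq2 (Jag2, Dtx4 and Tle3), which called 6.26% of all genes. Among the other ligands Jag2 was at 12.3, 8.85, 9.73 and 6.54 CPM in aged mice 1 to 4 and at 5.71 to 6.61 CPM in young mice (log2 fold change 0.60, SE 0.19, adjusted p = 0.0998, edgeR), and Dll1 had -0.18 (SE 0.17). Jag2 passed both thresholds with DESeq2 (adjusted p = 0.0462) and without aged mouse 4 (adjusted p = 0.0292, edgeR). The fit without aged mouse 4 called 733 of 14066 genes, where the fit with all mice called 287 of 13944. Among the enzymes that glycosylate or cut the receptor in the Golgi, Lfng, a fringe glycosyltransferase, had 0.56 (SE 0.20, adjusted p = 0.129, edgeR), and 0.37 (SE 0.15, adjusted p = 0.164, edgeR) without aged mouse 1, its highest mouse at 14.3 CPM. In receptor turnover Dtx4, a Deltex ubiquitin ligase, was at 74.7, 59.1, 38.1 and 35.4 CPM in aged mice 1 to 4 and at 24.3 to 30.7 CPM in young mice, without overlap (log2 fold change 0.85, SE 0.23, adjusted p = 0.0752, edgeR). Dtx4 passed both thresholds with DESeq2 (adjusted p = 0.00979) and in the same fit without aged mouse 4 (adjusted p = 0.0301, edgeR). Mib1, the ubiquitin ligase that ligands need for their endocytosis, had 0.13 (SE 0.089), and 0.057 (SE 0.066) without aged mouse 1.

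In the nucleus, Rbpj was at 39.3 ± 3.97 CPM (SD, 4 mice) for aged and 37.3 ± 1.84 CPM (SD, 4 mice) for young mice, with a log2 fold change of 0.075 (SE 0.090, adjusted p = 0.620, edgeR). Maml1 had 0.045 (SE 0.094). The coactivator with the smallest p was Crebbp, a histone acetyltransferase, at 0.34 (SE 0.11, adjusted p = 0.106, edgeR). Of 17 corepressors 0 changed by edgeR (2.06% of all genes) or limma-voom (1.96%) and 1 by DESeq2 (6.26%), Tle3. An unadjusted p below 0.05 was found for 5 of the 17 and for 25.5% of all genes. Groups were apart for 4 of the 17 and for 18.9% of all genes. The smallest p was that of Cir1, a corepressor bound by Rbpj, at 10.7 to 15.9 CPM in aged and 9.63 to 10.2 CPM in young mice (log2 fold change 0.49, SE 0.13, adjusted p = 0.0741, edgeR). Cir1 passed both thresholds with library size only (adjusted p = 0.0422) and without aged mouse 3 (adjusted p = 0.0448). Tle3, a Groucho corepressor that Hes proteins recruit, had a log2 fold change of -0.80 (SE 0.24, adjusted p = 0.0944, edgeR), and Tle1 had 0.50 (SE 0.17, adjusted p = 0.119); both are named after their values were seen.

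**Figure D4:**
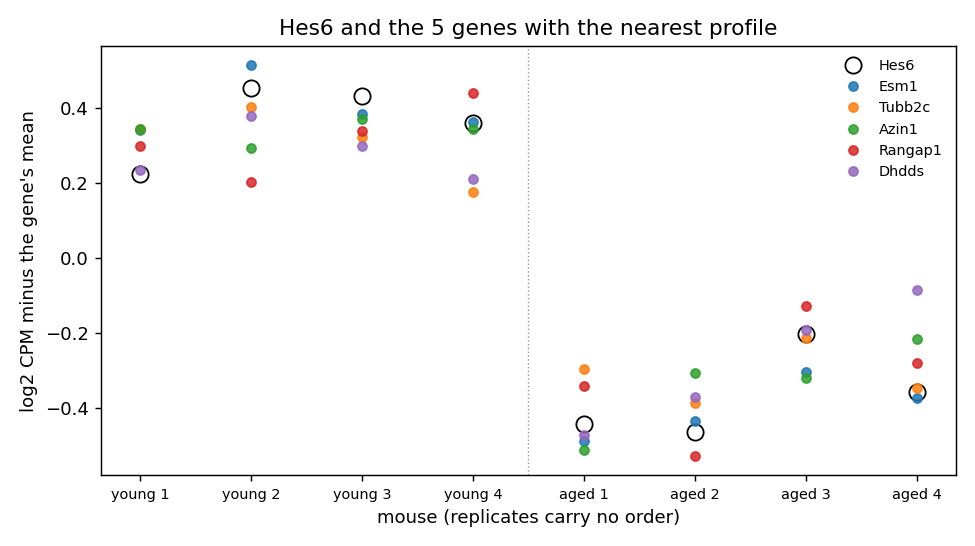
Log2 CPM of Hes6 (open black circles) and of the 5 genes with the nearest profile, each minus its own mean over the 8 mice, plotted for every mouse. All 6 genes lie above 0 in the 4 young and below 0 in the 4 aged mice.

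The genes whose profile over the 8 mice was most like that of Hes6 were Esm1, Tubb2c, Azin1, Rangap1 and Dhdds. Likeness was the root mean square difference between log2 CPM values after each gene was centered on its mean, and it was 0.0649 for Esm1, 0.106 for Tubb2c, 0.116 for Azin1, 0.116 for Rangap1 and 0.126 for Dhdds, where the median over all genes was 0.443. Because Hes6 separates the ages, its neighbors do so too, and no test attaches to them. Esm1, an endothelial proteoglycan gene, was at 29.1 ± 1.59 CPM (SD, 4 mice) for aged and 50.6 ± 2.78 CPM (SD, 4 mice) for young mice, close to Hes6 in level as well. Azin1, the antizyme inhibitor of polyamine metabolism, was at 144 ± 12 CPM (SD, 4 mice) and 229 ± 5.13 CPM (SD, 4 mice). Among the members themselves the nearest pair was Notch2 and Jag1 (0.124), and the member nearest to Hes6 was Dll4 (0.228).

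**Figure D5:**
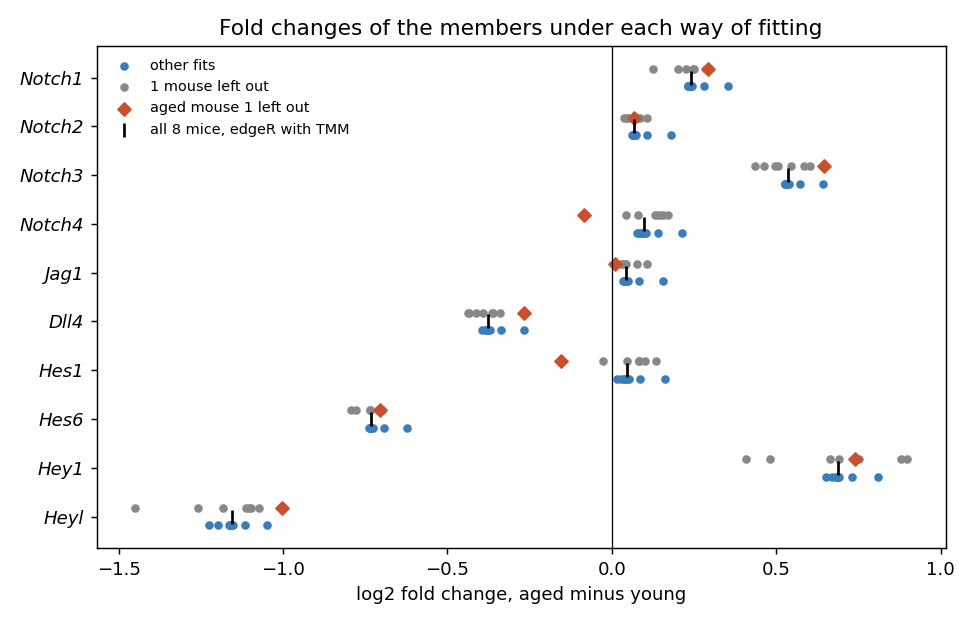
Log2 fold changes (horizontal axis) of the 10 members with all 8 mice by edgeR (black ticks), with other scalings, tests, filters or a replicate block (blue), and with 1 mouse left out (gray, or red diamonds for aged mouse 1). Hes6 stays between -0.79 and -0.62, and Hes1 and Notch4 lie on both sides of 0.

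Over 17 other ways of fitting the counts (16 for Hey1) the direction turned for Hes1 and Notch4 and held for the other members. Hes6 stayed between -0.79 and -0.62, and the value nearest to 0 was that with library size only, a scaling that moved the median of all genes by 0.11. Heyl stayed between -1.45 and -1.0, Notch3 between 0.44 and 0.64, and Dll4 between -0.44 and -0.27. The podocyte, distal convoluted tubule, leukocyte and fibroblast marker lists, which were not set beside a member, had median log2 fold changes of 0.064, 0.029, 0.52 (0.14 without aged mouse 4) and -0.059. By edgeR 1 of their 25 genes changed, the leukocyte gene Csf1r at -1.0 (adjusted p = 0.0472, edgeR), where 2.06% of all genes did. In the leukocyte list 7 of the 8 genes tested had a positive log2 fold change, and Csf1r was the exception. Across the 4 lists DESeq2 called 4 of the 25 genes, Calb1, Csf1r, Col1a1 and Col3a1 (6.26% of all genes), and limma-voom 1, Csf1r (1.96%). The collagen genes Col1a1 and Col3a1 of the fibroblast list had -1.20 and -1.24 with all aged mice below all young mice, at adjusted p = 0.0729 and 0.0559 (edgeR). The fibroblast list did not move one way: Col1a2 had -0.57, while Pdgfra had 0.45, Dcn 0.62 and Lum 0.70.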

How the data were processed

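Kidney cortex RNA of 8 mice was sequenced after removal of ribosomal RNA, with stranded, paired-end libraries. The authors used TopHat2 for alignment (mm9) and HTSeq for strand-specific counting on RefSeq genes, and deposited raw counts per gene, which are whole numbers without normalization; CASAVA 1.8.2 is also named in the submitters' processing notes. The rows that name no gene stayed out of every total; read pairs on no feature made up 20.0% to 29.9% of a library. Each library's own table was read, and the 8 sample columns of a joint table were left out because their names match no sample title. Counts were tested in R 4.3.3 with edgeR 4.0.16 (quasi-likelihood, TMM, filterByExpr at a minimum count of 10) over all 8 libraries without covariates, with Benjamini-Hochberg adjustment over the 13944 genes tested. SEs were derived from the fold change and the F value of each gene. A prior count of 2 was added for log2 CPM. FPKM used the longest coding transcript of GENCODE on NCBIM37, which is mm9; all 82 pathway genes had a length. Alternatives were 3 other scalings, DESeq2 1.42.0, limma 3.58.1 (voom), a robust fit, 2 other filters, the replicate number as a block, and each mouse left out. Scripts were tested on simulated counts with 200 changed genes. At an adjusted p below 0.05 alone, 5.59% of the calls were false with edgeR, 6.15% with limma-voom and 19.6% with DESeq2. Calls by DESeq2 only are to be read with that share in mind.

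The members and lists were chosen with earlier results of these data known. Named genes were the members, other pathway genes past both thresholds, the gene with the smallest p in each class of the list, and the 5 genes nearest to Hes6 in profile; others are said to be outside this rule or belong to the marker lists. Genes named only to complete a class (such as Dll1, Ccnd1, Maml1 or Adam10) were added after seeing the data. No library duplicated another (chi-square per gene of the closest pair 9.22). Proteins were not analysed here. A gene of the pathway list is counted but not reported here.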

Additional observations from a re-analysis of the deposited data

Results flagged for a closer look

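In 2 of 66 groups of 4 mice, taken over the named genes and the marker lists, a mouse lay far from the other 3 by Dixon's test, where chance gives about 1 in 20 groups, or 3.3. In Notch4 aged mouse 1 was highest, at 46.2 CPM with the others between 28.8 and 31.3 CPM, its distance to the next mouse being 0.852 of the range of the 4. In Dtx4 young mouse 2 was lowest, at 24.3 CPM with the others between 29.7 and 30.7 CPM, the distance being 0.830 of the range. No explanation was tested for either.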

How the results depend on the processing

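Of the 287 changed genes, the number became 488 with library size only, 873 with DESeq2 and 130 with the replicate number as a block, and with 1 mouse left out it ran from 8 to 733. With all mice, 1 pathway gene other than the members changed. The number was 2 with library size only, 4 with DESeq2 and 2 with the adjusted p alone. With 1 mouse left out it ran from 0 to 5, the 5 without aged mouse 4, where 733 of 14066 genes changed. The cause of these differences in number was not tested. Under the other scalings, limma-voom, the robust fit and both filters it stayed at 1, and with the replicate block it was also 1. Hes1 turned to -0.15 without aged mouse 1 and to -0.026 without young mouse 1, within a range of -0.15 to 0.13 with 1 mouse left out, and Notch4 turned to -0.084 without aged mouse 1, within -0.084 to 0.17. With limma-voom 45.8% of the changed genes were higher in aged mice, as against 56.8%. Mice with the same number shared no label beyond it, so the labels pair them by number only. The correlation of their deviations from the group means lay between -0.030 and 0.206 over 4 pairs. Mice with unlike numbers were not compared in this way, so whether the pairs shared a batch was not tested. The block changed no call of a member other than Hes6. Hey1 was left out of the fit with at least 10 counts in every library, which it did not reach. Depth limits Hey1 most, with 8 to 44 counts per library.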
